A study of Mus musculus with 51 samples.

Results

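CA3 pyramidal layers of mice that carry the tTA transgene alone were compared with those of double negative (DN) littermates, which carry no transgene. The question was how gene expression in this subfield differs in carriers of this transactivator transgene. The comparison holds 11 of the 51 arrays of the study, 5 from tTA mice and 6 from DN mice, chosen by genotype and subfield from the sample labels. The study used laser microdissection to cut the CA1 and CA3 pyramidal layers and the granule cell layer of the dentate gyrus (DG) from 17 female mice aged 4.5 months, and profiled them on Affymetrix HT-MG-430A arrays. Each mouse gave 1 array per subfield, so that the arrays of a subfield come from different mice. All mice were littermates from crosses of CaMKIIα-tTA breeders on a 129S6 background with breeders on an FVB/N background that carry mutant human tau under a tetracycline response element (TRE). The tTA mice inherited only the transactivator, the 6 rTg4510 mice inherited both transgenes, and the DN mice inherited neither. None of these mice is described as treated with doxycycline.

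The tTA protein is a bacterial repressor joined to a viral activation domain, and it switches on any transgene placed behind a TRE. The CaMKIIα promoter confines it to excitatory forebrain neurons, CA3 pyramidal cells among them, so that tTA mice are the usual control for rTg4510 mice and DN mice are the control for the tTA transgene. The transgene is known to have inserted on chromosome 12 with loss of a stretch that holds Vipr2, Wdr60, Esyt2, Ncapg2 and Ptprn2. The tTA mice thus differ from DN mice in the tTA protein and in the insertion, which cannot be told apart in this comparison. CA3 pyramidal cells receive mossy fibres from the DG, excite one another through recurrent collaterals and send the Schaffer collaterals to CA1.

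Values are log2 signals, on which a difference of 1 is a 2-fold change, and differences are tTA minus DN with their standard errors. The median signal over probe sets was 2.98 in the CA3 arrays, and signals near or below it lie close to background. The labelled layer matched its markers: the CA3 list stood highest among the CA1, CA2, CA3 and DG lists in all 17 CA3 arrays. Single arrays stood apart from their labels. Prnp, whose untranslated sequence is part of the tau transgene, had a signal of 9.65 at the dimmer of its 2 probe sets in DN mouse 4. It lay between 7.17 and 8.35 in the tTA arrays, between 9.59 and 10.07 in the rTg4510 arrays and between 7.89 and 8.55 in the 5 other DN arrays. At the brighter Prnp probe set, DN mouse 4 had 10.29 and the 5 other DN arrays 9.39 to 9.63. The array labelled DN mouse 4 thus had the Prnp signal of the rTg4510 arrays, and some results are also given without it. A value given only once may also move without that array. Xist, transcribed from the inactive X chromosome, had a signal of 4.06 in DN mouse 5 and of 8.23 to 9.26 in the 16 other CA3 arrays, while the Y-linked probe sets of Eif2s3y, Kdm5d and Uty stayed at or below 2.87 in all 17.

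Mean values of array quality lay slightly apart between the genotypes, but no measure passed an adjusted p of 0.05 (exact permutation tests, lowest adjusted p = 0.19). The median signal of an array averaged 2.95 ± 0.04 in tTA mice and 2.99 ± 0.05 in DN mice (SD, n = 5 and 6; two-sided exact permutation p = 0.0952). The signal of the 3′ probe set of actin minus that of its 5′ probe set, a measure of RNA integrity, was −0.38 ± 0.26 in tTA mice and −0.58 ± 0.08 in DN mice (exact permutation p = 0.0952). For Gapdh this measure was 2.61 ± 0.18 in tTA mice and 2.48 ± 0.38 in DN mice (exact permutation p = 0.476). The correlation of an array with the averaged signals of all other CA3 arrays had a mean of 0.958 in tTA mice and 0.968 in DN mice (exact permutation p = 0.279). DN mouse 4 had the highest Gapdh value, 3.17, and the lowest correlation, 0.937, of the DN arrays. Without it 3 of these 4 measures differed at an unadjusted exact p of 0.0238 (median signal), 0.0397 (Gapdh) and 0.0397 (correlation), and the actin p was 0.119. The part of array quality in the differences below was not tested.

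No probe set differed between tTA and DN mice in CA3 once p-values were adjusted. Of 22626 probe sets, 0 passed an adjusted p of 0.05 in limma (0%), and the lowest adjusted p was 0.304. Fisher's LSD, the test named in the methods, also called 0, with a lowest adjusted p of 0.134 on log2 signals and 0.054 on linear ones. At an unadjusted p under 0.05, 1388 probe sets differed (1400 by Fisher's LSD), 710 with higher signal in tTA mice (3.14%) and 678 with lower signal (3%). Without DN mouse 4, 1 probe set was called (0.00442%), that of Nfkbie, and 1372 had an unadjusted p under 0.05. Without tTA mouse 4, 1 other was called, that of Nipbl (−1.98 ± 0.26, adjusted p = 0.034), a cohesin loader whose difference over all arrays was −1.57 (adjusted p = 0.52). When the 51 arrays of the 3 subfields were fitted together, with mouse as a random effect, 3 were called, those of Nfkbie, Cog1 and Nrep.

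The precision of the comparison sets what this count can show. The median standard error of a difference was 0.26 (quartiles 0.17 and 0.39), and it was 0.35 over the 13574 brighter probe sets, those above the 40th percentile of signal. The 95% interval of the difference lay within 1 of 0 for 65.8% of all probe sets and for 48.5% of the brighter ones, and within 2 of 0 for 96.3% of all. For most brighter probe sets a 2-fold difference was therefore not excluded by its own interval, whereas 4-fold differences were outside the interval for nearly all probe sets. The median difference over all probe sets was 0.03. Estimated differences above 1 were found for 179 probe sets and below −1 for 361, and they lay above 2 for 2 probe sets and below −2 for 5.

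**Figure D1:**
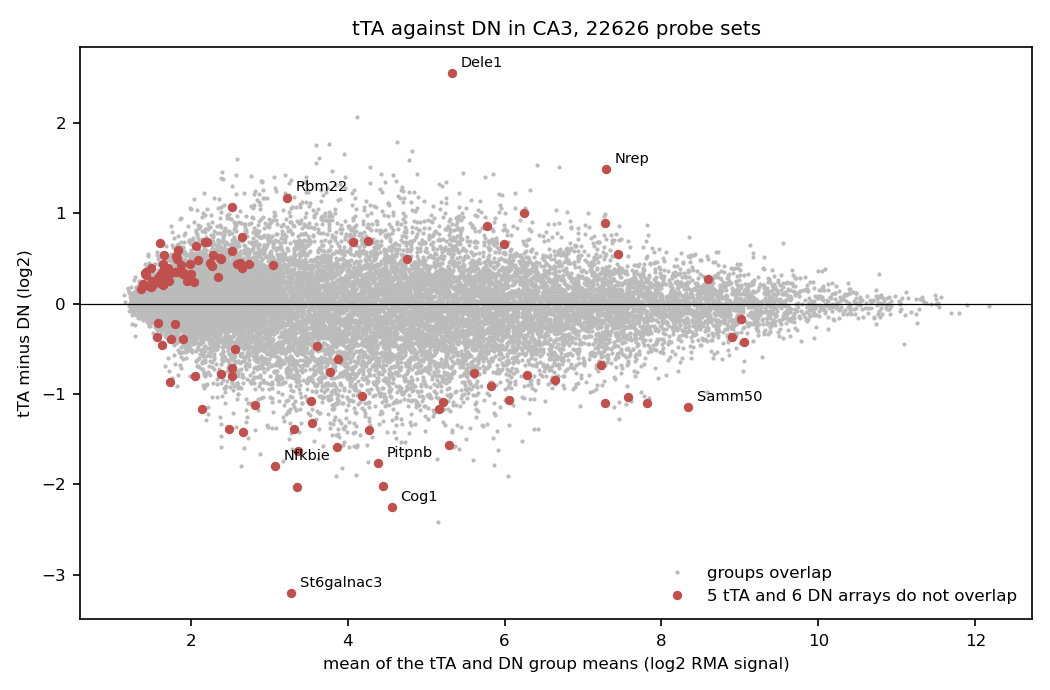
Difference between tTA and DN mice in CA3 (y axis, log2, tTA minus DN) against the mean of both group means (x axis, log2 signal) for 22626 probe sets. Red points mark the 118 probe sets whose 5 tTA and 6 DN arrays did not overlap, of which 70 lie above 0 and 48 below.

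The genes with the smallest p-values are described next as measured values, since none passed the threshold in the fit of all CA3 arrays. Among them were the most separated signals of the comparison. Cog1, a subunit of the oligomeric Golgi complex that tethers vesicles within the Golgi, had the smallest p. Its signal was 3.29, 3.19, 2.995, 3.74 and 3.99 in the tTA arrays, and ran from 4.97 through a median of 5.43 to 7.10 in the DN arrays. All tTA arrays lay below all DN arrays, and the rTg4510 arrays averaged 4.55 ± 0.68 (SD, n = 6). The difference was −2.25 ± 0.38 (adjusted p = 0.304), and it was −2.38 without DN mouse 4 (adjusted p = 0.163).

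Nfkbie encodes IκBε, which holds NF-κB in the cytoplasm. It had signals of 2.38, 1.89, 2.43, 2.01 and 2.14 in the tTA arrays, and in the DN arrays its lowest signal was 2.62, its median 4.06 and its highest 4.87. The groups did not overlap, the lowest DN signal was that of DN mouse 4, and rTg4510 arrays averaged 2.27 ± 0.54. The tTA arrays all lay below the median array signal, so that Nfkbie was close to background in tTA mice. The difference of −1.80 ± 0.34 (adjusted p = 0.304) became −2.07 ± 0.28 without DN mouse 4, where limma's adjusted p was 0.0357.

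Nrep, which encodes a small neuronal protein linked to regeneration and TGF-β signalling, was the brightest gene among the leading ones with higher signal. The tTA arrays read 7.59, 8.42, 7.68, 7.94 and 8.59, against 6.13 at the lowest, 6.59 at the median and 7.003 at the highest of the DN arrays. Here too no tTA array overlapped a DN array, the difference was 1.49 ± 0.30 (adjusted p = 0.304), and rTg4510 arrays averaged 7.61 ± 0.67. The array labelled DN mouse 4 had the highest DN signal, and the difference was 1.58 without it.

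The most positive difference over all probe sets was that of Dele1, whose product carries mitochondrial stress to the cytosol and starts the integrated stress response. Its signal was 7.02, 6.23, 6.30, 6.10 and 7.39 in tTA mice and between 2.50 and 5.51, with a median of 4.26, in DN mice. The difference was 2.55 ± 0.52 (adjusted p = 0.304), and rTg4510 arrays averaged 5.18 ± 0.86 and overlapped both groups. DN mouse 4 had the lowest DN signal, and without it the difference was 2.24. The second probe set of Dele1 had signals near background and a difference of 0.25 ± 0.12.

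The most negative difference was that of St6galnac3, a sialyltransferase that acts on gangliosides and glycoproteins. At the leading probe set the tTA arrays read 2.43, 1.16, 1.71, 1.84 and 1.25, while the DN arrays ran from 3.40 through a median of 5.13 to 5.86. The tTA arrays were all near background and all below the DN arrays, with a difference of −3.20 ± 0.67 (adjusted p = 0.351). Its rTg4510 arrays spread over both ranges, with an average of 3.35 ± 1.72. The other probe set of the gene averaged 2.88 in tTA mice and 2.98 in DN mice, a difference of −0.10 ± 0.28.

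**Figure D2:**
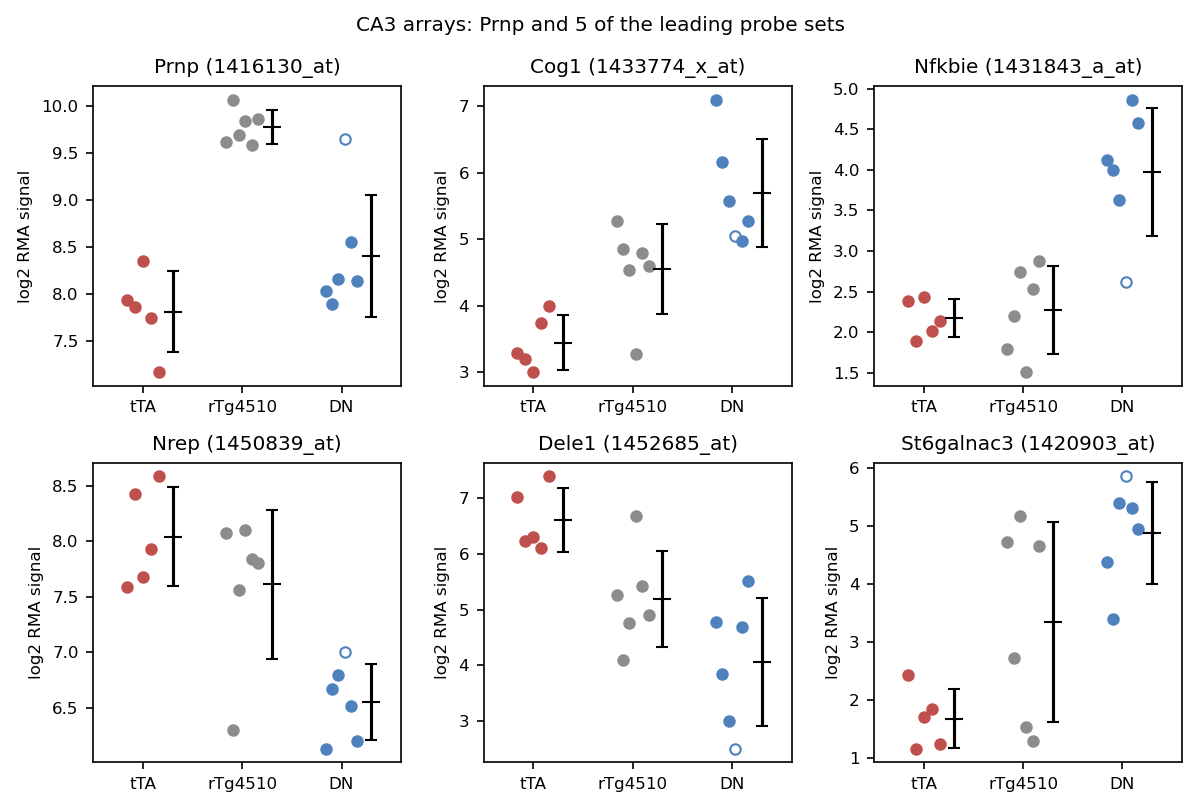
Log2 signals (y axes) of Prnp and of 5 leading probe sets in each CA3 array of tTA, rTg4510 and DN mice; bars give the mean and SD of the 5, 6 and 6 arrays, and the open circle is the array labelled DN mouse 4. For Cog1, Nfkbie, Nrep, Dele1 and St6galnac3 the tTA and DN arrays do not overlap, and DN mouse 4 has a Prnp signal of 9.65, within the rTg4510 range.

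Further genes were measured with lower signal in tTA mice. Eif4a1, the RNA helicase that unwinds the 5′ ends of mRNAs for translation, read 7.49, 6.92, 7.61, 7.67 and 6.61 in tTA mice, against 7.72 to 9.13 with a median of 8.28 in DN mice. The 2 ranges were narrowly apart and the difference was −1.10 ± 0.23 (adjusted p = 0.388), whereas the second Eif4a1 probe set, of like brightness, differed by 0.13 ± 0.34. Eif2b1, a subunit of the exchange factor that recharges eIF2, averaged 3.06 in tTA mice and 4.65 in DN mice, a difference of −1.59 ± 0.33 (adjusted p = 0.318). Mrpl44, of the mitochondrial ribosome, averaged 3.57 in tTA mice and 4.98 in DN mice at 1 probe set (−1.40 ± 0.28), but 7.06 in tTA mice and 6.51 in DN mice at a brighter one (0.55 ± 0.45). Samm50, which inserts proteins into the outer mitochondrial membrane, was not among the 10 leading genes but among the bright ones without overlap. Its tTA arrays read 7.28, 7.56, 7.97, 7.68 and 8.36, and its DN arrays 8.50 to 9.29 with a median of 8.95. The arrays of both genotypes did not overlap (−1.15 ± 0.26, adjusted p = 0.515), and the second Samm50 probe set differed by −0.34 ± 0.27.

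Lower averages in tTA mice were also measured for a further 4 leading genes. Acvr1, a receptor for bone morphogenetic proteins, averaged 2.001 in tTA mice and 2.78 in DN mice. For Plek, a leukocyte and platelet substrate of protein kinase C, the averages were 1.56 in tTA mice and 2.73 in DN mice, and for Nacc1, a BTB-domain transcriptional repressor, 2.99 in tTA mice and 4.07 in DN mice. Grk6, a kinase of G protein-coupled receptors, averaged 2.56 in tTA mice and 4.19 in DN mice. In each of these 4 the genotypes did not overlap, but signals were near background in tTA mice, and 1 other probe set each of Acvr1, Plek and Nacc1 differed in the other direction (0.56 ± 0.53, 0.95 ± 0.44 and 0.16 ± 0.15), while that of Grk6 differed by −0.02 ± 0.14. The remaining probe set of Acvr1, its brightest, averaged 6.07 in tTA mice and 6.60 in DN mice (−0.54 ± 0.38), and the remaining one of Plek differed by −0.07 ± 0.25.

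Among the 10 leading genes with higher signal, Rbm22, a protein of the spliceosome's catalytic core, averaged 3.82 in tTA mice and 2.64 in DN mice (1.17 ± 0.21, adjusted p = 0.304). The nuclear ATPase Morc3 averaged 6.11 in tTA mice and 5.13 in DN mice, with the same direction at both of its other probe sets. Pip4k2a, a phosphoinositide kinase, averaged 6.23 in tTA mice and 5.34 in DN mice, although its 2 other probe sets differed by −0.01 and −0.52. Ahi1, a ciliary protein, averaged 6.85 in tTA mice and 6.16 in DN mice, with −0.97 ± 0.44 at its other probe set. The gene 0610010K14Rik averaged 4.48 in tTA mice and 2.72 in DN mice, and its second probe set had a like difference (1.26 ± 0.47). The remaining 3, Serpinb3a (0.53), Ugt2b5 (0.53) and C3 (0.44), were near background in every array. Chromosome 12, where the transgene lies, holds 3.17% of the 18287 probe sets with a known chromosome, with 0 of the 49 placed probe sets whose tTA arrays all exceed the DN arrays and 2 of the 45 whose tTA arrays all lie below. Chromosome 18, named after its values were seen, holds 2.7% of them. It has 3 of the 10 leading genes with higher signal, Rbm22, Nrep and Dele1, and 0 of the 10 with lower signal.

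Probe sets whose arrays did not overlap between the genotypes numbered 118, with tTA above DN for 70 (0.309% of all) and below for 48 (0.212%). With labels exchanged at random, a probe set would separate in 1 direction or the other with a probability of 0.00433. That probability covers both directions together, so it belongs beside the 118 of 22626 probe sets, not beside either share above. Many probe sets without overlap therefore arise from random labels alone, and a lack of overlap is a description of single genes. Only 28 of the 118 had a mean signal of at least 5 in 1 of the genotypes. Among the brighter ones with tTA below DN, Rab8b, a small GTPase of membrane traffic, averaged 4.59 in tTA mice and 5.75 in DN mice (−1.17 ± 0.31, adjusted p = 0.685). The other Rab8b probe set, near background, differed in the other direction (0.71 ± 0.43). Atp8a1, a flippase that keeps phosphatidylserine on the inner leaflet, averaged 6.73 in tTA mice and 7.84 in DN mice, and DN mouse 4 alone reached 9.06. Pitpnb, a phosphatidylinositol transfer protein, averaged 3.51 in tTA mice and 5.27 in DN mice, with DN mouse 1 at 8.13, and its 2 other probe sets differed by −0.44 and −1.35. With tTA above DN, Emc4, of the complex that inserts proteins into the endoplasmic reticulum, averaged 7.72 in tTA mice and 7.16 in DN mice (0.55 ± 0.15, adjusted p = 0.742). The ubiquitin ligase Marchf7 averaged 7.72 in tTA mice and 6.83 in DN mice, and Atp1b2, the glial β subunit of the sodium pump, averaged 6.32 in tTA mice and 5.66 in DN mice at 1 probe set but 7.44 in tTA mice and 7.49 in DN mice at its brighter one.

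Other probe sets of the same genes gave a mixed picture. Of the 27 genes named as leading or as apart and bright, 19 had further probe sets, 24 in all. Of these, 14 differed in the direction of the named probe set, and 0 had arrays of the 2 genotypes that did not overlap. At least 1 further probe set went the other way for 9 genes.

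Genes of the transgenes and of the insertion site did not pass the test, beside a median size of 0.18 for the difference over all probe sets. Prnp differed by −0.59 ± 0.27 at its dimmer probe set (−0.34 without DN mouse 4) and by −0.20 ± 0.16 at its brighter one (−0.07 without DN mouse 4). Camk2a, whose promoter drives tTA, averaged 10.52 in tTA mice and 10.45 in DN mice (0.06 ± 0.11). Endogenous Mapt differed by −0.62 ± 0.39, −0.23 ± 0.31 and −0.12 ± 0.55 at its 3 probe sets. Of the 6 genes listed for the insertion site, 3 were measured. Vipr2, the receptor for vasoactive intestinal peptide, averaged 1.58 in tTA mice and 1.63 in DN mice, near background in both. Ptprn2, a dense-core vesicle protein, averaged 3.99 in tTA mice and 3.96 in DN mice (0.03 ± 0.35), and Ncapg2, a condensin subunit, 2.75 in tTA mice and 2.23 in DN mice (0.52 ± 0.32), with tTA mouse 5 at 4.47 and the other tTA arrays at 2.09 to 2.78.

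Gene lists were read by the number of members with higher or lower signal and by the median difference, beside 6473 of all 11955 named genes with higher signal (54.1%) and a median of 0.03. In bulk tissue a lower signal from fewer cells of a type cannot be told apart from less RNA per cell. No member of any list was called. The CA3 markers leaned lower, with 7 of 9 measured genes below 0 and a median of −0.11 (−0.16 without DN mouse 4). Iyd, an iodotyrosine deiodinase whose hippocampal transcript marks CA3, read 3.05, 2.98, 4.17, 3.73 and 4.05 in tTA mice, and 3.59 to 5.12 with a median of 4.61 in DN mice. The groups overlapped (−0.91 ± 0.29, adjusted p = 0.779) through DN mouse 4 alone, and without it they were apart (−1.10 ± 0.26, adjusted p = 0.651). Synpr, a synaptic vesicle protein of mossy fibres and CA3, differed by 0.36 ± 0.18, Bok, of the Bcl-2 family, by −0.34 ± 0.26, and Coch, near background, by −0.18 ± 0.20. Markers common to pyramidal neurons had 7 of 11 members above 0 and a median of 0.06, and Zbtb18, a repressor of forebrain neurons, differed by 0.15 ± 0.10.

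Interneuron markers had a median of −0.28 with 14 of 20 members below 0. Without DN mouse 4 the median was −0.11, above the −0.16 of CA3 markers, so that its place as the lowest of the lists rested on that array. Nos1, neuronal nitric oxide synthase, read 6.41, 4.87, 5.84, 3.13 and 5.27 in tTA mice, against 5.22 to 7.44 with a median of 7.01 in DN mice, and the groups overlapped (−1.62 ± 0.71, adjusted p = 0.809). The summed linear signal of the list ranged over 1211 to 1447 in tTA arrays and 1224 to 1611 in DN arrays.

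Lists of glial markers had more members above 0 than below. Microglia markers had 18 of 24 members above 0 and a median of 0.23 (0.20 without DN mouse 4), and 3 had an unadjusted p under 0.05. Ctss, a lysosomal protease of microglia, read 6.78, 6.42, 5.87, 6.90 and 6.84 in tTA mice, and 4.15 to 6.33 with a median of 5.45 in DN mice. Only the lowest tTA array and the highest DN array crossed (1.20 ± 0.37, adjusted p = 0.779), and rTg4510 arrays averaged 7.03 ± 0.70. Spi1, the transcription factor PU.1 of myeloid cells, averaged 2.63 in tTA mice and 2.14 in DN mice without overlap (0.49 ± 0.16). The members ran from −1.61 ± 0.90 for Laptm5 to 1.51 ± 0.83 for Csf1r, both named after their values were seen, so that bright members did not move together. The defining markers Cx3cr1, P2ry12 and Tmem119 averaged 2.50, 3.22 and 1.78 in tTA mice and 2.29, 2.71 and 1.95 in DN mice, and 15 of the 24 genes lay below the median array signal. The summed signal of the list was 499.7 to 883 in tTA arrays and 414 to 797 in DN arrays. Complement genes, some of them also microglia markers, had 14 of 16 members above 0 with a median of 0.11 (0.20 without DN mouse 4), and 13 of the 16 lay below the median array signal. Clu, an abundant complement-binding chaperone, averaged 9.23 in tTA mice and 8.79 in DN mice (0.44 ± 0.22).

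Astrocyte markers had 12 of 19 members above 0 (63.2%, beside 54.1% of all named genes) and a median of 0.24. Without DN mouse 4, 16 of 19 lay above 0 and the median was 0.25. Slc4a4, a sodium bicarbonate cotransporter, averaged 5.81 in tTA mice and 4.70 in DN mice (1.11 ± 0.50), and Gja1, the gap junction protein connexin 43, averaged 8.89 in tTA mice and 8.55 in DN mice (0.34 ± 0.24). Other members had negative differences, among them Gfap, the intermediate filament of astrocytes (−0.24 ± 0.65), Cbs, which makes cystathionine (−0.32 ± 0.48), and the thyroid hormone transporter Slco1c1 (−0.54 ± 0.61), all named after their values were seen. The summed signal of the list was 2517 to 3764 in tTA arrays and 1973 to 3609 in DN arrays. Oligodendrocyte markers had 9 of 14 above 0 and a median of 0.12 (0.06 without DN mouse 4), with Ugt8a, which makes myelin galactolipids, at 1.12 ± 0.54 and the myelin protein Mog at −0.63 ± 0.29. Precursors of oligodendrocytes had 6 of 6 above 0 and a median of 0.16 (5 of 6 and 0.21 without DN mouse 4), and 4 of the 6 lay below the median array signal. Relative to all CA3 arrays, their average signal was 0.73 in tTA mouse 5 and at most 0.09 in the other tTA arrays, against −0.31 to 0.18 in DN arrays. Their marker Olig1 differed by 0.31 ± 0.28. DG markers had 6 of 9 above 0 and a median of 0.25 (8 of 9 and 0.30 without DN mouse 4), and 6 of the 9 lay below the median array signal. The average signal of DG markers, relative to all CA3 arrays, was 0.87 in tTA mouse 3 and 0.46 in tTA mouse 5. It was −0.44 to 0.03 in the other tTA arrays and −0.42 to 0.74 in DN arrays. Npnt, an extracellular matrix protein of this list, averaged 2.96 in tTA mice and 2.52 in DN mice. Blood vessel markers had 12 of 18 above 0 and a median of 0.10. Whether the amount of other cells in the captured tissue had a part in the leading differences was not tested.

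**Figure D3:**
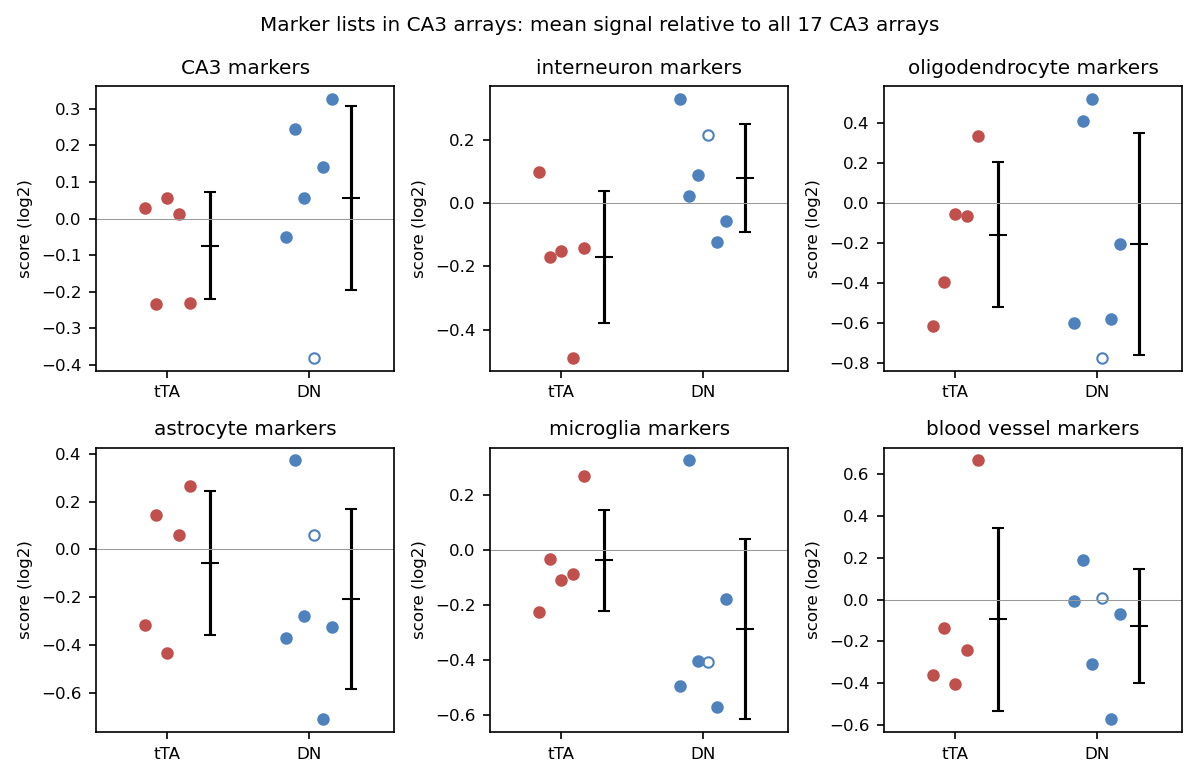
Score of 6 marker lists in each CA3 array, the average, over the list's genes, of the log2 signal after subtraction of each gene's mean in the 17 CA3 arrays, for 5 tTA and 6 DN mice; bars give the mean and SD, and open circles mark DN mouse 4. The genotypes overlap in every list, and the interneuron score averages −0.17 in tTA mice and 0.08 in DN mice, the microglia score −0.04 in tTA mice and −0.29 in DN mice.

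Several lists of neuronal function had more members below 0 than above. Vesicle and SNARE proteins, the machinery of transmitter release, had 19 of 29 members below 0 and a median of −0.11 (−0.07 without DN mouse 4), with the calcium sensor Syt7 at −1.05 ± 0.36 and the active zone protein Rims2 at −1.11 ± 0.46. Potassium channels had 21 of 33 below 0 and a median of −0.11, and glutamate receptors 11 of 18 below 0 with the same rounded median (−0.07 without DN mouse 4). Grin2a, an NMDA receptor subunit, differed by −0.58 ± 0.37. The list of calcium/calmodulin kinases, which also holds the calcineurin regulator Rcan2 (0.72 ± 0.42), had 11 of 19 members above 0. Immediate early genes, which follow neuronal activity, had 18 of 33 above 0 and a median of 0.01, against 14 of 33 and −0.07 without DN mouse 4. An unadjusted p under 0.05 was found for 2 members with a higher signal, Plk3 (0.32 ± 0.13) and Ccn1 (0.33 ± 0.15), both named after their values were seen. The 2 members with such a p and a lower signal were Nr4a3, an orphan nuclear receptor, which averaged 3.34 in tTA mice and 4.90 in DN mice, and Dusp6, a phosphatase of ERK, which averaged 6.19 in tTA mice and 7.04 in DN mice.

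Lists of housekeeping functions changed direction without a single array. Ribosomal proteins had 43 of 70 members above 0 and a median of 0.07, but 29 of 70 and −0.04 without DN mouse 4. The proteasome had 23 of 36 above 0 and a median of 0.10, against 16 of 36 and −0.03 without it, and oxidative phosphorylation 43 of 71 and 0.04, against 32 of 71 and −0.05. Within these lists Rpl36a, of the large ribosomal subunit, averaged 8.24 in tTA mice and 7.37 in DN mice (0.87 ± 0.33), and the complex I subunit Ndufc1 9.97 in tTA mice and 9.68 in DN mice (0.29 ± 0.14). The unfolded protein response had a median of 0.0005 with 13 of 26 above 0, and −0.16 with 10 of 26 without DN mouse 4, and its endoplasmic reticulum chaperones Dnajb11 and Pdia4 differed by −0.57 ± 0.19 and −1.09 ± 0.42. Srebf2, which switches on cholesterol synthesis, averaged 3.96 in tTA mice and 5.50 in DN mice (−1.54 ± 0.35, adjusted p = 0.515), in a list with a median of 0.02 (0.07 without DN mouse 4). The Srebf2 groups overlapped, but without DN mouse 4 they were apart (−1.68 ± 0.35, limma adjusted p = 0.418). Pdk4, a kinase that holds back pyruvate oxidation, averaged 2.26 in tTA mice and 3.38 in DN mice without overlap, in a list of glucocorticoid-responsive genes with a median of 0.12 (0.01 without DN mouse 4).

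**Figure D4:**
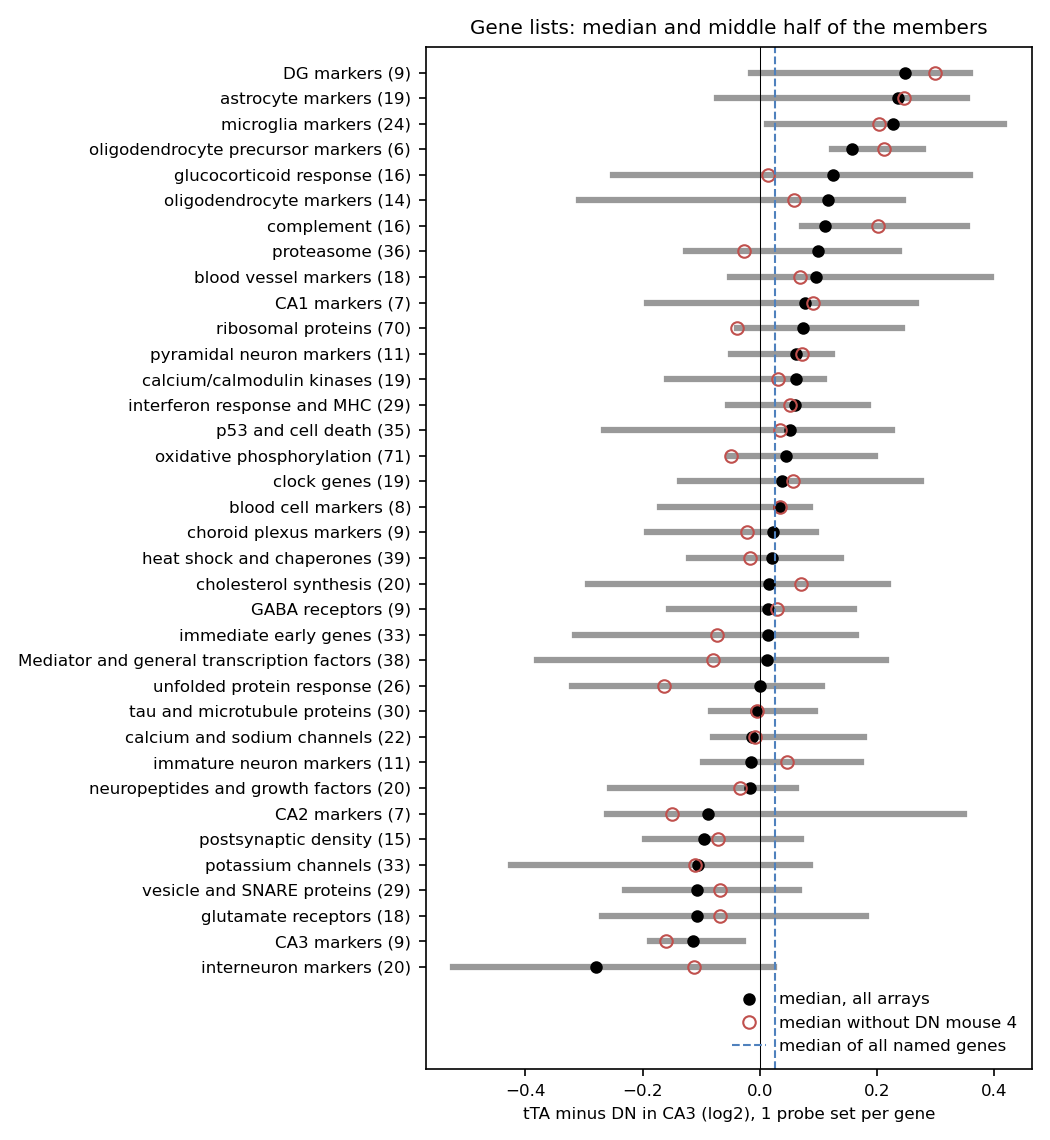
Median difference between tTA and DN mice in CA3 (x axis, log2) over the measured genes of each list, whose number stands beside its name; grey bars span the middle quartiles of the genes, open circles give the median without DN mouse 4, and the dashed line is the median of all named genes, 0.03. Medians lie between −0.28 for interneuron markers and 0.25 for DG markers, and those of ribosomal proteins, the proteasome and oxidative phosphorylation cross 0 without DN mouse 4.

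The same mice allow the difference to be set against that in CA1 and the DG. In each of these subfields 0 probe sets passed the adjusted threshold for tTA against DN, with 1038 at an unadjusted p under 0.05 in CA1 and 1179 in the DG. Among the same 4 lists, CA1 markers stood highest in 9 of the 17 CA1 arrays, CA2 markers in 5 (1 tTA, 1 rTg4510 and 3 DN) and CA3 markers in 3 (1 tTA and 2 rTg4510). The CA1 and DG arrays of DN mouse 4 also had the Prnp signal of the rTg4510 arrays, 10.44 in CA1 and 9.98 in the DG at the dimmer probe set. The DG array labelled DN mouse 5 had a Prnp signal of 9.93 and an Xist signal of 9.91, unlike the CA1 and CA3 arrays of that mouse. The DG array labelled rTg4510 mouse 3 had a Prnp signal of 7.34 and an Xist signal of 2.50, the only low Xist signal among the DG arrays. These arrays enter the values for CA1, the DG and the gaps between subfields, and their part in them was not tested beyond leaving out DN mice 4 and 5. The tTA minus DN difference in CA3 was tested against that in CA1 and in the DG on each mouse's difference between subfields. No probe set passed for CA1 (0%, 1079 at an unadjusted p under 0.05) or for the DG (0%, 1150 at an unadjusted p under 0.05), and the lowest adjusted p was 0.746 for CA1 and 0.717 for the DG. Without DN mouse 4 the lowest adjusted p was 0.9999 for CA1 and 0.122 for the DG, and without DN mice 4 and 5 it was 0.687 for CA1 and 0.152 for the DG. With only tTA and DN mice in the fit, 1 probe set passed for CA1, that of Grk6, which differed by −1.63 ± 0.35 in CA3 and by 1.02 ± 0.58 in CA1 (adjusted p = 0.00581 for the gap of −2.64).

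The values stood as follows for the leading genes. For Cog1 the difference was −2.25 ± 0.38 in CA3, −0.18 ± 0.32 in CA1 and −0.03 ± 0.44 in the DG, and for Nfkbie it was −1.80 ± 0.34, −0.39 ± 0.35 and −0.13 ± 0.21 in the same order of subfields. Nrep differed by 1.49 ± 0.30 in CA3, by 0.36 ± 0.30 in CA1 and by −0.04 ± 0.19 in the DG. St6galnac3 differed by −3.20 ± 0.67 in CA3, by 1.49 ± 0.67 in CA1 and by −0.19 ± 0.75 in the DG, with a gap of −4.70 between CA3 and CA1 (adjusted p = 0.746). Dele1 differed by 2.55 ± 0.52 in CA3, by 0.63 ± 0.55 in CA1 and by −0.65 ± 0.53 in the DG, with a gap of 3.21 between CA3 and the DG (adjusted p = 0.717). The genes were ranked on CA3, so that the order of the subfields in these values is a description only.

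**Figure D5:**
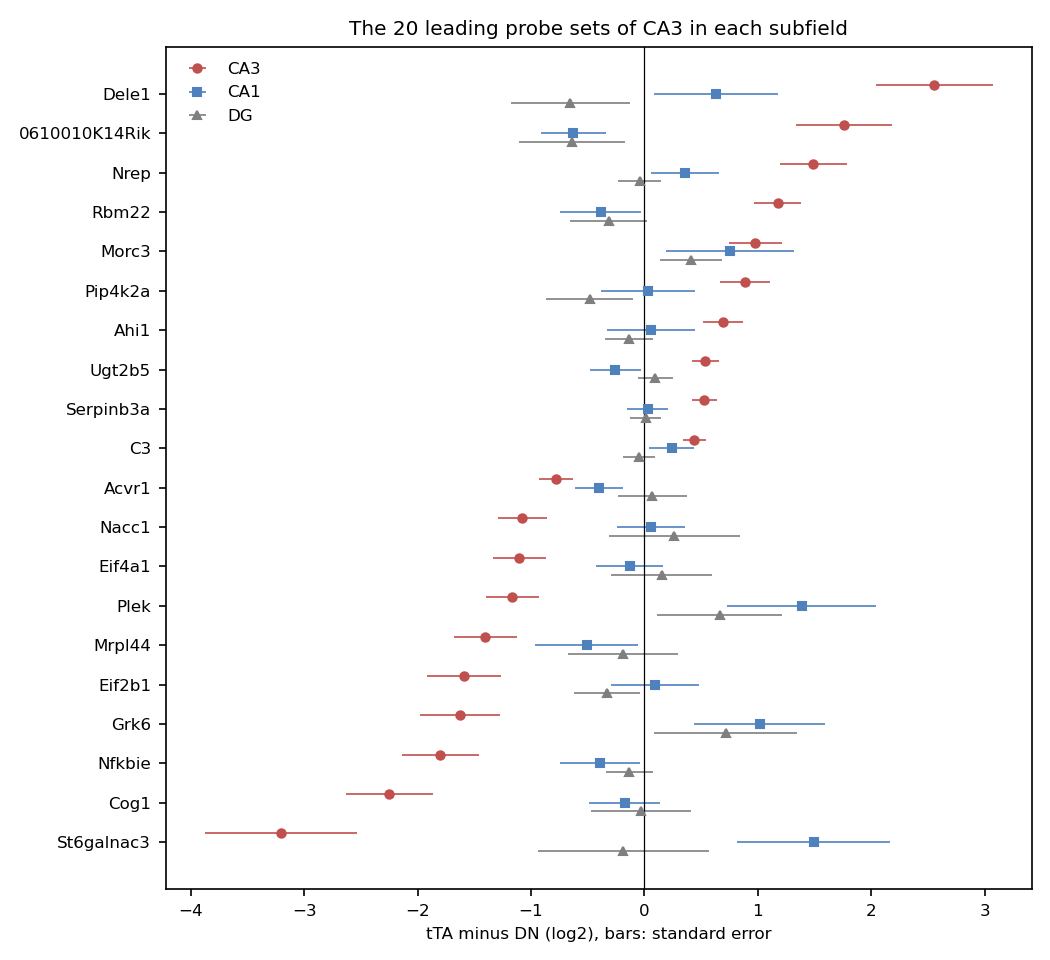
Difference between tTA and DN mice (x axis, log2, bars: standard error) in CA3, CA1 and the DG for the 20 probe sets with the smallest p in CA3, 10 in each direction. The CA3 values run from −3.20 for St6galnac3 to 2.55 for Dele1, while for Cog1 the CA1 and DG values are −0.18 and −0.03.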

How the data were processed

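RNA of the captured layers was amplified (Ovation Pico WTA), labelled and hybridized, with 1 array per mouse and subfield. The authors deposited log2 RMA signals per probe set, background-corrected, normalized and summarized. Although the methods speak of anti-log values, the signals run from 0.711 to 12.333 and were used as log2. Which arrays were normalized together is not given in the sources used here. The 90 control probe sets of 22716 were left out and 22626 tested, with no filter on signal. On the platform, 18003 probe sets have 1 symbol, 287 have several and 4336 lack one, and 332 of the last were named from the supplementary tables, so that 11955 genes were named. Symbols of 24 probe sets were updated, and chromosomes were taken, from a RefSeq gene table. The number of arrays limits the precision.

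The 3 genotypes of CA3 (17 arrays, which share an estimate of the spread) were fitted with limma 3.58.1 in R 4.3.3; p-values were adjusted by Benjamini-Hochberg over the 22626 probe sets and the threshold was 0.05. Subfields were compared on each mouse's difference between 2 subfields. Array quality (4 measures) was compared with exact permutation tests over all 462 splits of the arrays, whose smallest p is 0.00433. The fits were also run on simulated arrays with independent noise in each probe set. Such arrays lack the differences in array quality and the label conflicts of the real ones, so they cannot show how these affect the calls. Mice are numbered within a genotype, and no number pairs mice of different genotypes. Lists (39) used 1 probe set per gene, the brightest.

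Named were the 10 probe sets with 1 symbol and the smallest p in each direction, genes of the transgenes and insertion site, 2 members of each list described (4 for CA3 markers) with the smallest p, the 5 probe sets in each direction with the largest differences among those without overlap and with a mean signal of at least 5, and calls made without DN mouse 4. The lists, the rule and the comparison were chosen with earlier results of these data known. Results were recomputed with Fisher's LSD (on log2 signals, then on linear ones), with other sets of arrays, with array weights or a variance trend, on probe sets above the 40th signal percentile, after median centring or quantile normalization, on 1 probe set per gene, and without each array in turn. Counts at an unadjusted p, counts of arrays that do not overlap and array quality without DN mouse 4 were added after seeing the data. Python 3.11.15 and matplotlib 3.10.9 drew the figures.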

Additional observations from a re-analysis of the deposited data

Results flagged for a closer look

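Single arrays that stood far from the others of their genotype were looked for in 240 groups of arrays, the named probe sets and list scores of the 5 tTA and the 6 DN arrays of CA3, and 13 were found. Chance alone marks about 1 group in 20. In the tTA group, mouse 4 was low for Mrpl44 (2.87) and for Dlg4, the postsynaptic scaffold PSD-95 (5.50). tTA mouse 2 was low for Serpinb3a (1.87), and tTA mouse 3 was low for Atp5d, a subunit of ATP synthase (7.88). tTA mouse 5 was high for Apaf1, the core of the apoptosome (3.46), and in the score of blood vessel markers (0.667). In the DN group, mouse 4 was high for Atp8a1 (9.06), for the brighter Prnp probe set (10.29) and for Calb1, the calcium-binding protein of DG granule cells (3.40). DN mouse 1 was high for Pitpnb (8.13). DN mouse 2 was high for Clu (9.32) and low for 1 of the 3 Mapt probe sets (5.59), and DN mouse 5 was low for Xist (4.06).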

How the results depend on the processing

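The count of calls stayed at 0 under 10 of the 11 other settings and without 9 of the 11 arrays in turn. With all 51 arrays fitted and the mouse as a random block, 3 probe sets passed, those of Nfkbie, Cog1 and Nrep (adjusted p = 0.0123, 0.0123 and 0.0139 in limma). Leaving out single arrays gave 0 to 1 calls, Nipbl without tTA mouse 4 (adjusted p = 0.034) and Nfkbie without DN mouse 4 (adjusted p = 0.0357). Without DN mice 4 and 5 the count was 0. Over the other settings the count at an unadjusted p ran from 719 with 1 probe set per gene, and 831 after the filter on signal, both with fewer probe sets tested, to 1579. Without each array in turn it ran from 1144 to 1631. Probe sets without overlap numbered 118, 248 without DN mouse 4 and 445 without DN mice 4 and 5. Fewer arrays leave less room to overlap, so that these counts are not directly comparable. What part the removed arrays themselves had in the rise was not tested. Between CA3 and CA1, 1 probe set passed when only tTA and DN mice were fitted, that of Grk6 (−2.64, adjusted p = 0.00581, against 0.996 with rTg4510 mice in the fit); the cause was not tested. No sign change touched a call: Vipr2 became 0.0393 under array weights and 0.0016 without DN mice 4 and 5, Ptprn2 −0.046 under array weights and Olig1 −0.023 without DN mice 4 and 5. Over arrays left out in turn, Xist ran from −0.0416 to 0.998, Calb1 from −0.0648 to 0.62, Vipr2 from −0.15 to 0.039, Ptprn2 from −0.26 to 0.23 and the dimmest Mapt probe set from −0.31 to 0.24. No paired analysis was possible because the labels give mice of different genotypes no shared numbers. Signals near background limit what probe sets below the median array signal can show.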
